A study of Mus musculus with 24 samples.

Results

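The genes described here are 10 factors of histone H3 lysine 9 (H3K9) methylation and retroviral silencing, namely Trim28, Setdb1, Atf7ip, Ehmt1, Ehmt2, Suv39h1, Suv39h2, Cbx1, Cbx5 and Morc3. They were listed by name and not by a rule on their values, though earlier results of these data were known. They are 10 of 55291 genes counted in each of 12 RNA libraries, beside 1035 families of repeats. All 10 passed the filter on low counts in every comparison. The libraries came from mouse embryos in which the endogenous retrovirus MERVL had been knocked down (MERVL-KD), and from controls. Antisense oligonucleotides (ASOs), synthetic strands whose pairing with a transcript leads to its cleavage, were injected at 20 µM into the male pronucleus of zygotes. MERVL-KD embryos received a mixture of 3 MERVL ASOs and control embryos a scrambled ASO, so both groups were injected and cultured alike and no uninjected embryo is compared here. There were 6 groups of 2 biological replicates, one control and one MERVL-KD group at each of 3 stages (2-cell, 4-cell, 8-cell), and each library pooled 30 embryos without a zona pellucida. The parents were B6D2F1 mice, a hybrid of C57BL/6 and DBA/2, aged 8 weeks, while the strain label of the samples reads BDF2. The labels give 1.5 days post coitum for the 2-cell libraries and 2.5 for both the 4-cell and the 8-cell libraries. The day thus does not set these last stages apart. The paper states that cleavage stages were checked by eye under the microscope. It also reports that MERVL-KD embryos were delayed, with more of them than of controls still at early stages. Pools matched by stage can therefore differ in the pace of their embryos. The part of this in the 4-cell and 8-cell comparisons was not tested.

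Methylation of H3K9 marks silent chromatin, and in early embryos and embryonic stem cells it keeps many endogenous retroviruses (ERVs) from being transcribed. KRAB zinc finger proteins find a retroviral sequence and bring in TRIM28, which recruits the methyltransferase SETDB1 with its partner ATF7IP. EHMT1 (GLP) and EHMT2 (G9a) act as a pair that lays down mainly dimethylation, SUV39H1 and SUV39H2 trimethylate the heterochromatin around centromeres, and the HP1 proteins CBX1 and CBX5 bind methylated H3K9. MORC3 is an ATPase of the MORC family that takes part in ERV silencing. Embryos at the 2-cell stage start major transcription of their own genome while RNA stored in the egg is being removed.

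The injected oligonucleotides are shown because their pairing defines the groups. Capitals mark bases 6 to 14, which lie between the chemically modified ends.
MERVL-ASO1: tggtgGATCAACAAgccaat
MERVL-ASO2: catttGTCTGTTTAccacga
MERVL-ASO3: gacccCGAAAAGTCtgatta
Scramble-ASO: agcgcGGGTATTGAaccagg
Within the gene spans of the 10 factors, 460114 bases read as the transcript, no stretch paired with any MERVL ASO at 4 or fewer mismatches, and there were 0 such stretches for the scrambled ASO as well. The fewest mismatches were 5 for the MERVL ASOs, in Ehmt1 and Morc3, and 6 for the scrambled ASO.

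Libraries held from 28167085 to 41482526 counts, and a factor held from 308 to 18829 counts in a library. MERVL-int, the internal part of MERVL, checked the labels. In CPM, counts per 1e6 counts of a library scaled across the 12 libraries by the TMM method, it stood at 67693 and 74781 in control 2-cell embryos against 1323.6 and 1228 in MERVL-KD. Its 4-cell values were 20321 and 17412 in control, with 493 and 319.6 after knockdown, and its 8-cell values 12222 and 12012, with 277 and 295 after knockdown. Its log2 fold changes were -5.72, -5.53 and -5.40 (adjusted p = 1.28e-16, 0.000104 and 2.42e-12). All 6 MERVL-KD libraries were thus far below their controls. Markers of cumulus cells, which surround the egg, summed to 4.16 to 4.496 CPM in control and 5.59 to 6.31 CPM in MERVL-KD 2-cell embryos, and to at most 3.51 CPM later. Markers of blood cells were higher in MERVL-KD at each stage, at 1.60 to 2.39 against 3.79 to 4.28 CPM, 0.568 to 1.88 against 4.26 to 9.06 CPM, and 1.02 to 1.27 against 1.33 to 2.26 CPM. Summed markers of the 2-cell stage were 489 to 582 CPM in control and 301 to 362 CPM in MERVL-KD 2-cell embryos, and those of oocyte and maternal RNA 1180 to 1266 CPM against 762 to 861 CPM. At the 4-cell stage both sums lay close together, at 106 to 113 against 102 to 104 CPM and at 126 to 131 against 125 to 130 CPM. Markers of later preimplantation stages summed to 242 to 243 CPM in control and 197 to 200 CPM in MERVL-KD 8-cell embryos. The part of these shifts in the values of the 10 factors was not tested. In pooled embryos fewer cells of a kind and less RNA per cell cannot be told apart.

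In control embryos every one of the 10 factors passed between the 2-cell and the 4-cell stage under TMM scaling, Setdb1 not with library size as the only scaling. Ehmt2, Ehmt1, Trim28, Morc3 and Cbx5 rose, and Suv39h2, Cbx1, Atf7ip, Suv39h1 and Setdb1 fell. The 10 calls, 5 in each direction, compare with 54.7% of all 24850 genes and repeat families tested that passed (26.6% higher and 28.1% lower, adjusted p under 0.05, edgeR's quasi-likelihood test). At least 2-fold changes were seen in 7 of the 10, against 44.1% of all. From the 4-cell to the 8-cell stage, which carry the same labelled day, Trim28 and Ehmt2 were higher again. No other factor passed, where 6.14% of all features did. This step depended on the scaling: with library size as the only scaling, which moved the median of all features to -0.23, Trim28 and Ehmt2 no longer passed and Atf7ip and Ehmt1 passed as lower. The plot of the levels by stage shows this course with each library as a point.

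**Figure D1:**
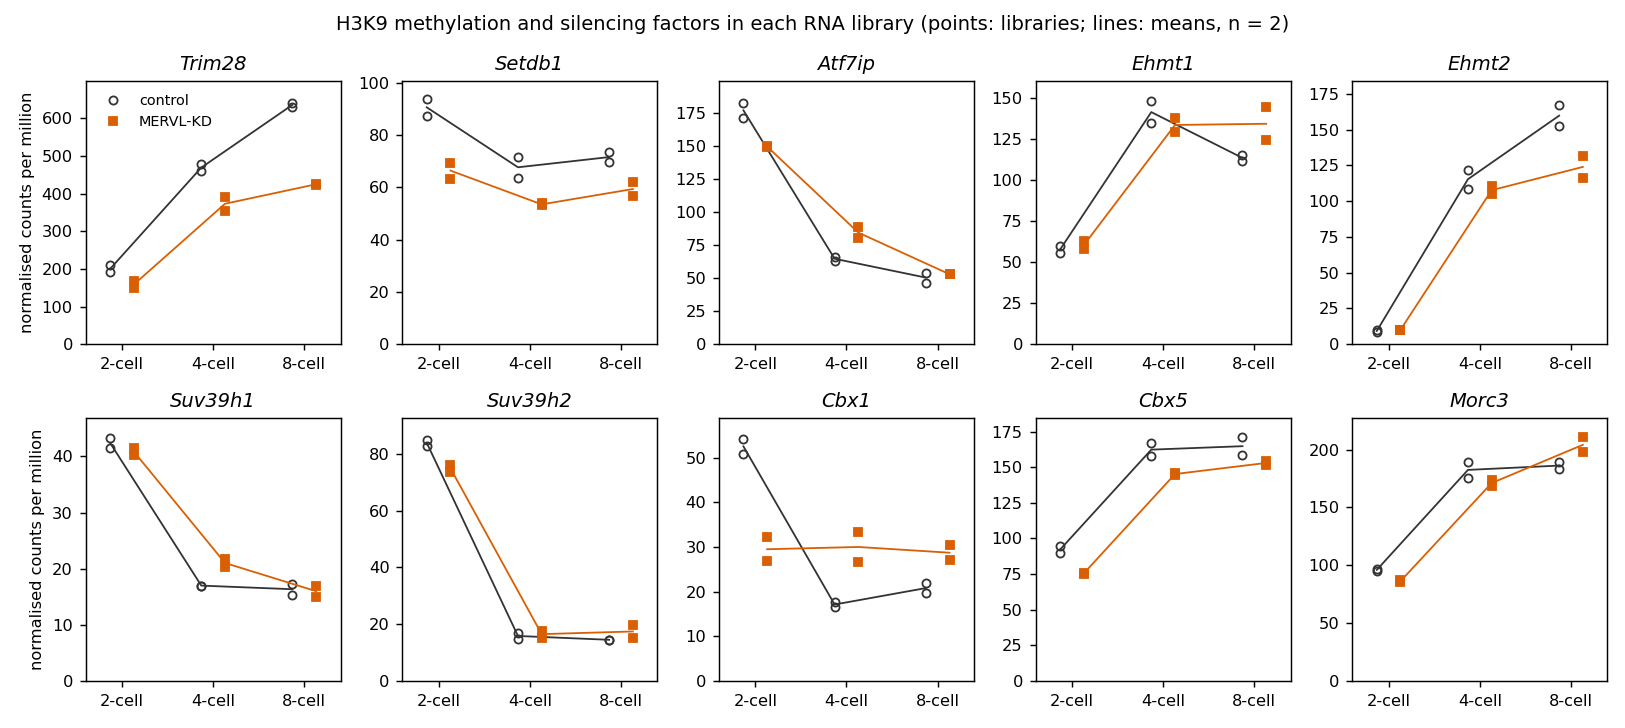
Level of each of the 10 factors in CPM (TMM-scaled) at the 2-cell, 4-cell and 8-cell stages, with 1 panel per gene, 1 point per library and lines through the means of control and MERVL-KD embryos. Ehmt2 climbs from below 10 CPM to 152 to 167 CPM in controls, and the Cbx1 line of MERVL-KD embryos stays between 26.6 and 33.4 CPM while that of controls drops.

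Per kilobase of exon, Trim28 was the highest factor in all 6 groups, at 48.1 CPM per kb in control 2-cell, 113 in 4-cell and 153 in 8-cell embryos. The order below it turned over between the first and second stage. At the 2-cell stage Suv39h2 came next in controls at 19.03 CPM per kb, then Morc3 at 17.7, Setdb1 at 13.2, Cbx1 at 12.3, Cbx5 at 10.2, Atf7ip at 8.53, Suv39h1 at 8.04 and Ehmt1 at 7.12, with Ehmt2 last at 1.69. At the 4-cell stage Morc3 came next after Trim28 at 33.6 CPM per kb, followed by Ehmt2 at 21.0, Cbx5 at 18.0, Ehmt1 at 17.4, Setdb1 at 9.87, Cbx1 at 4.00, Suv39h2 at 3.59, Suv39h1 at 3.22 and Atf7ip at 3.12. The order at the 8-cell stage was the same, with Ehmt2 at 29.1 and Suv39h2 at 3.29 CPM per kb. Neighbours whose libraries overlapped in controls were Cbx5 and Ehmt1 at the 4-cell stage and Suv39h2 and Suv39h1 at the 8-cell stage, and with 2 libraries a group other neighbours are not shown to differ by their order alone. Exon lengths were merged over all isoforms, which lowers the value of a gene with long rare exons such as Atf7ip (20726 bases).

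Against the controls, each of these factors differed by less than 2-fold in MERVL-KD embryos. At the 2-cell stage 2 of 10 passed, Cbx1 and Setdb1, both lower, where 14.0% of 21347 features passed (6.74% higher and 7.23% lower). In 4-cell embryos 3 of 10 passed, Cbx1 and Atf7ip higher and Trim28 lower, where 10.6% of 20505 did (4.83% higher and 5.75% lower). In 8-cell embryos 1 of 10 passed, Trim28, which was lower, where 5.13% of 19153 did (1.62% higher and 3.51% lower). Changes of at least 2-fold were found in 0 of 10 at every stage, and in 6.47%, 4.46% and 1.70% of all features. With library size as the only scaling the calls were 1 higher and 1 lower, then 2 higher and 0 lower, then 1 higher and 1 lower. The median log2 fold change of the 10 factors was -0.12, -0.08 and 0.03 at the 3 stages, against 0.02, 0.01 and 0.01 over all features. The libraries of the groups did not overlap for 9, 7 and 8 of the 10 factors, where this held for 57.2%, 54.3% and 49.7% of all features. With 2 libraries a group, an exact permutation test of a single gene cannot go below p = 0.333, so the calls rest on the model fitted over all features.

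**Figure D2:**
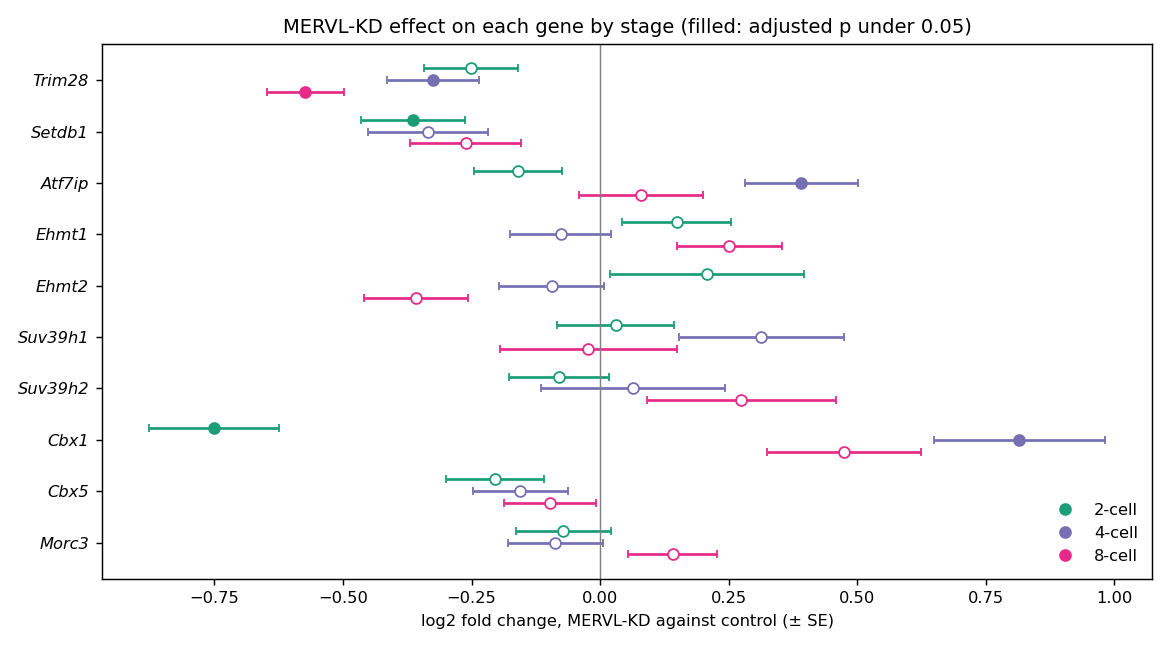
Log2 fold change of MERVL-KD against control embryos for the 10 factors at each stage, with bars of 1 standard error and filled points for adjusted p under 0.05. Cbx1 lies at -0.75 at the 2-cell stage and at 0.82 at the 4-cell stage, and Trim28 lies below 0 at all 3 stages (0.038 at the 2-cell stage with library size as the only scaling).

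Trim28 (chr7:12999114-13031035, plus strand, GRCm38), the corepressor that KRAB zinc finger proteins recruit, was below control at every stage under TMM scaling, and at the 2-cell stage above it by 0.038 in log2 with library size as the only scaling. Its level was 191.1 and 209.2 CPM in control and 167.5 and 149.7 CPM in MERVL-KD 2-cell embryos. It was 478 and 460.6 against 392 and 355 CPM at the 4-cell stage, and 641 and 630.8 against 427 and 423 CPM at the 8-cell stage. At each stage both MERVL-KD libraries were below both controls. The log2 fold changes were -0.25 ± 0.092 (SE, adjusted p = 0.0844), -0.33 ± 0.090 (adjusted p = 0.0392) and -0.57 ± 0.075 (adjusted p = 0.000980), the last a level 1.49 times lower. In controls Trim28 rose by a log2 of 1.23 ± 0.094 from the 2-cell to the 4-cell stage and by 0.44 ± 0.092 from the 4-cell to the 8-cell stage (adjusted p = 2.61e-10 and 0.00660). The difference of the MERVL-KD effect between neighbouring stages was 0.0049 ± 0.131 and -0.25 ± 0.1303 on the log2 scale, and neither passed (adjusted p = 1.00 and 0.467), so a change of the effect with the stage was not shown. The 8-cell call held in all alternatives short of a 2-fold minimum. The 4-cell call was lost without control replicate 1, control replicate 2 or MERVL-KD replicate 2 (adjusted p = 0.229, 0.114 and 0.101) and with library size alone (0.123), and the 2-cell difference passed without MERVL-KD replicate 1 (adjusted p = 0.0218) and in the fit of 12 libraries (-0.34, adjusted p = 0.0249). The step from the 4-cell to the 8-cell stage was lost without control 4-cell replicate 2 (adjusted p = 0.0791).

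Setdb1 (chr3:95323525-95357202, minus strand), the H3K9 methyltransferase that TRIM28 recruits, had values of 87.3 and 93.8 CPM in control and 69.4 and 63.3 CPM in MERVL-KD 2-cell embryos. At the 4-cell stage it had 71.6 and 63.6 against 53.8 and 53.1 CPM, and at the 8-cell stage 69.7 and 73.3 against 56.6 and 61.9 CPM. The groups were apart at all 3 stages, with MERVL-KD below control. The log2 fold change was -0.36 ± 0.101 (adjusted p = 0.0245) at the 2-cell stage and fell short of the threshold later, at -0.33 ± 0.117 (adjusted p = 0.0964) and -0.26 ± 0.108 (adjusted p = 0.206). The 2-cell call was lost without control replicate 2 (adjusted p = 0.0962) or MERVL-KD replicate 2 (adjusted p = 0.104), and with library size as the only scaling, where the difference was -0.07. In controls Setdb1 changed by a log2 of -0.42 ± 0.113 from the 2-cell to the 4-cell stage (adjusted p = 0.00321). That call was lost without control 4-cell replicate 2 (-0.35) and with library size as the only scaling (-0.25, edgeR, adjusted p = 0.0681). A stretch of 271 bases of its transcript, 5.82% of it, has a copy of 99.63% identity on the same chromosome.

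Atf7ip (chr6:136506167-136610862, plus strand), the partner that stabilises SETDB1, went the other way at the 4-cell stage. Control and MERVL-KD embryos had 171.0 and 182.8 against 149.1 and 149.8 CPM at the 2-cell stage. They had 63.2 and 66.1 against 88.8 and 80.0 CPM at the 4-cell stage, and 46.5 and 54.2 against 52.8 and 53.1 CPM at the 8-cell stage. MERVL-KD was below both controls at the 2-cell stage (a log2 of 0.13 above them with library size as the only scaling) and above both at the 4-cell stage, and the groups overlapped at the 8-cell stage. The log2 fold changes were -0.16 ± 0.086 (adjusted p = 0.254), 0.39 ± 0.110 (adjusted p = 0.0435) and 0.08 ± 0.121 (adjusted p = 0.798). The effect at the 4-cell stage exceeded that at the 2-cell stage by a log2 of 0.63 ± 0.149 (adjusted p = 0.0186), where 4.12% of all features passed this test of the difference. That call was lost with 6 of the 8 libraries left out in turn, the exceptions being control 2-cell replicate 1 and control 4-cell replicate 2, at adjusted p from 0.0541 to 0.0910. It was lost as well with library size as the only scaling (adjusted p = 0.251). The 4-cell call was lost without control replicate 1, control replicate 2 or MERVL-KD replicate 1 (adjusted p = 0.267, 0.182 and 0.127). In controls Atf7ip fell by 1.45 ± 0.107 on the log2 scale from the 2-cell to the 4-cell stage (adjusted p = 1.60e-10). Its next step, -0.36 ± 0.107, missed the threshold (adjusted p = 0.0502). Of its transcript, 8.57% has near-identical copies elsewhere in the genome.

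Ehmt2 (chr17:34898469-34914052, plus strand) and Ehmt1 (chr2:24789928-24919614, minus strand), which form the G9a/GLP pair, had unlike courses. Ehmt2 was at 9.82 and 8.70 CPM in control 2-cell embryos, at 122 and 109 CPM in 4-cell and at 167 and 152 CPM in 8-cell embryos. The rise from the 2-cell to the 4-cell stage was 12.47-fold, a log2 of 3.64 ± 0.125 (adjusted p = 1.73e-15), the largest change of the 10 factors in any comparison. It rose again by a log2 of 0.47 ± 0.109 to the 8-cell stage (adjusted p = 0.0127), a call lost without control 4-cell replicate 2 or control 8-cell replicate 1 (adjusted p = 0.169 and 0.125). Ehmt1 was at 55.6 and 59.9, 135 and 148, and 115 and 112 CPM in the controls of the 3 stages. It rose by a log2 of 1.29 ± 0.108 from the 2-cell to the 4-cell stage (adjusted p = 1.21e-09) and changed by -0.32 ± 0.106 afterwards (adjusted p = 0.0835).

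In MERVL-KD embryos Ehmt2 had 10.1 and 10.1 CPM at the 2-cell, 110.4 and 105 CPM at the 4-cell, and 132 and 116 CPM at the 8-cell stage. Only at the 2-cell and the 8-cell stage did the groups not overlap. The log2 fold changes were 0.21 (adjusted p = 0.537), -0.09 (adjusted p = 0.642) and -0.36 ± 0.1003 (adjusted p = 0.0644). The 8-cell difference missed the threshold but passed by DESeq2 (adjusted p = 0.0309) and without MERVL-KD replicate 1 (adjusted p = 0.00214). Ehmt1 had 57.9 and 62.9, 138 and 129.6, and 144 and 124 CPM, with log2 fold changes of 0.15 (adjusted p = 0.407), -0.08 (adjusted p = 0.707) and 0.25 ± 0.102 (adjusted p = 0.198). At the 8-cell stage both MERVL-KD libraries were above both controls, and the difference passed without MERVL-KD replicate 2 (adjusted p = 0.0183). With library size as the only scaling the 2-cell difference of Ehmt1 was 0.44 and passed (adjusted p = 0.00626).

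Suv39h1 (chrX:8061171-8074760, minus strand) and Suv39h2 (chr2:3455815-3475031, minus strand), the methyltransferases of heterochromatin around centromeres, were highest in 2-cell embryos. Suv39h2 was at 84.8 and 83.0 CPM in controls there, at 14.7 and 17.0 CPM at the 4-cell and at 14.6 and 14.4 CPM at the 8-cell stage. Suv39h1 was at 41.5 and 43.2, then 17.0 and 17.0, then 15.3 and 17.3 CPM. The falls from the 2-cell to the 4-cell stage were -2.41 ± 0.150 (adjusted p = 1.05e-11) and -1.32 ± 0.148 (adjusted p = 1.08e-07) on the log2 scale. MERVL-KD embryos had 73.6 and 76.3, 15.3 and 17.7, and 19.7 and 15.2 CPM of Suv39h2 at the 3 stages, and 40.3 and 41.4, 21.8 and 20.2, and 16.9 and 15.0 CPM of Suv39h1. None of these differences passed, the 2-cell one of Suv39h2 turned to 0.21 with library size alone, and the groups overlapped for Suv39h2 at the 4-cell and for Suv39h1 at the 8-cell stage. Their log2 fold changes ran from -0.08 to 0.27 for Suv39h2 and from -0.02 to 0.31 for Suv39h1, the top value being 0.31 ± 0.160 at the 4-cell stage (adjusted p = 0.257). Part of their exons overlaps genes on the other strand, 14.55% of the exon bases of Suv39h1 with Gm14820 and 8.10% of those of Suv39h2 with Dclre1c. The strand setting of the counting is not given in the sources used here, so reads of these stretches cannot be assigned with certainty.

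Cbx1 (chr11:96789127-96808640, plus strand), the HP1 protein also called HP1β, was the factor with the largest MERVL-KD effect and the one that passed as lower at one stage and as higher at another. Control embryos had 54.2 and 50.8 CPM at the 2-cell, 17.7 and 16.5 CPM at the 4-cell and 19.6 and 22.0 CPM at the 8-cell stage. MERVL-KD embryos had 26.8 and 32.2, then 33.4 and 26.6, then 27.1 and 30.3 CPM. The MERVL-KD libraries lay below both controls at the 2-cell stage and above both at the later stages, and they spanned 26.6 to 33.4 CPM over all stages. The log2 fold changes were -0.75 ± 0.126 (adjusted p = 0.000768), 0.82 ± 0.166 (adjusted p = 0.00910) and 0.47 ± 0.150 (adjusted p = 0.0966). The 8-cell difference passed with library size alone (adjusted p = 0.0463) and under a filter of 1 count (0.0384). The change of the effect from the 2-cell to the 4-cell stage was 1.64 ± 0.218 on the log2 scale (adjusted p = 0.000159), and from the 4-cell to the 8-cell stage it was -0.34 ± 0.219 (adjusted p = 0.579). The 2-cell and the 4-cell calls and the first of these differences held in every alternative short of a 2-fold minimum, with any library left out included. In controls Cbx1 fell by 1.62 ± 0.157 on the log2 scale between the 2-cell and the 4-cell stage (adjusted p = 1.26e-08). Gm11517 lies on the other strand within the span of Cbx1 and held 2272 to 10268 counts per library. The genes share 0 annotated exon bases.

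Cbx5 (chr15:103191544-103239816, minus strand), or HP1α, did not pass in MERVL-KD embryos at any stage. Its control values were 89.9 and 94.5, 158 and 167, and 171 and 158 CPM, and its MERVL-KD values 75.7 and 75.3, 144 and 146, and 152 and 154 CPM. MERVL-KD libraries were below both controls at each stage, by log2 values of -0.20 (adjusted p = 0.181), -0.16 (adjusted p = 0.337) and -0.10 (adjusted p = 0.618). With library size as the only scaling the 2-cell and the 8-cell differences turned to 0.08 and 0.03. In controls Cbx5 rose by a log2 of 0.82 ± 0.096 from the 2-cell to the 4-cell stage (adjusted p = 2.19e-07).

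Morc3 (chr16:93832121-93876073, plus strand) followed nearly the same course as Cbx5. Control embryos had 95.1 and 96.9, 176 and 189, and 189 and 183 CPM, a rise of 0.93 ± 0.094 in log2 from the 2-cell to the 4-cell stage (adjusted p = 2.52e-08). MERVL-KD embryos had 85.5 and 86.9, 168 and 174, and 210.5 and 198 CPM, below both controls at the earlier stages and above both at the last. No difference passed, with log2 fold changes of -0.07 (adjusted p = 0.689, and 0.22 in log2 with library size alone), -0.09 (adjusted p = 0.633) and 0.14 (adjusted p = 0.417).

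Across the 10 factors 2 passed the test of the difference between the 4-cell and the 2-cell effect, Cbx1 and Atf7ip, as given above. For the difference between the 8-cell and the 4-cell effect 0 of 10 passed by edgeR's quasi-likelihood test and 0 by DESeq2, where 0.640% of all features passed. Ehmt1 (0.32, unadjusted p = 0.0424) and Atf7ip (-0.31, unadjusted p = 0.0491) were the 2 of 10 at an unadjusted p under 0.05, where 11.8% of all features were.

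The pairs of related genes shifted in their balance, which the plot of paralogue ratios shows. Per kilobase, Ehmt2 stood at 0.261 and 0.215 of Ehmt1 in control 2-cell, at 1.34 and 1.09 in 4-cell and at 2.15 and 2.01 in 8-cell embryos. In MERVL-KD embryos the ratio was 0.257 and 0.237, then 1.19 and 1.20, then 1.35 and 1.38, so the groups overlapped at the earlier stages and were apart at the 8-cell stage. Cbx5 stood at 0.786 and 0.883 of Cbx1 in control 2-cell embryos and at 1.34 and 1.11 in MERVL-KD. At the 4-cell stage the ratio was 4.22 and 4.80 in control against 2.05 and 2.61, and at the 8-cell stage 4.14 and 3.42 against 2.66 and 2.41. The control ratio was thus below that of MERVL-KD embryos in the 2-cell libraries and above it later. Suv39h2 per Suv39h1 went from 2.37 ± 0.10 (SD, n = 2) in control 2-cell embryos to 1.12 ± 0.12 (n = 2) at the 4-cell stage. The ratios were not tested on their own.

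**Figure D3:**
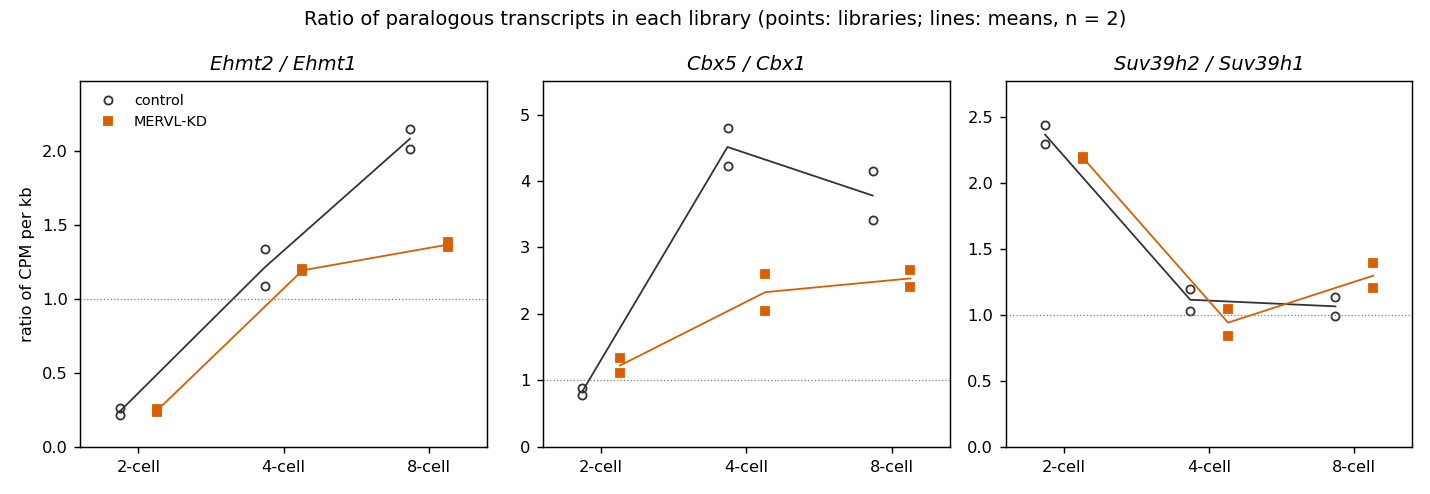
Ratio of CPM per kb between related factors (Ehmt2 to Ehmt1, Cbx5 to Cbx1, Suv39h2 to Suv39h1) on a linear axis by stage, with 1 point per library and lines through the group means. The Ehmt2 to Ehmt1 ratio of the control 8-cell libraries is 2.01 and 2.15 and that of the MERVL-KD libraries 1.35 and 1.38, and the Cbx5 to Cbx1 ratio of MERVL-KD lies above control at the 2-cell stage and below it at the later stages.

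The likeness of courses was measured as the root mean square difference of the centred log2 CPM of the 6 groups, where 0 is the same course. Among the 10 factors Cbx5 and Morc3 were closest at 0.107, and Ehmt2 and Suv39h2 farthest apart at 2.83. Of 9647 genes with at least 5 CPM on average, the nearest to Trim28 was Mlf2 (0.0385), to Setdb1 Ddx39 (0.0531), to Ehmt1 Ino80 (0.0548), to Ehmt2 Pfn1 (0.0797) and to Suv39h2 Ppp2r5c (0.0431). Nearest to Suv39h1 was Ubap1 (0.0445), to Cbx5 Prdm10 (0.0336), to Morc3 Arfrp1 (0.0507), to Atf7ip Gm1995 (0.0572) and to Cbx1 Rexo5 (0.0789). These are the smallest of many distances over 6 group means and carry no test.

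The promoters of the 10 factors were described by their composition, which the choice of genes did not use. The reference was all promoters, with no filter on expression in these embryos. In the 250 bases before their 13 start sites in RefSeq (GRCm38.p6) the median number of CpG was 18, from 7 to 36, against a median of 6 over 32851 promoters of the same length. The letters GGGCGG, sought on both strands, were present in 13 of 13, against 32.7% of all promoters, and TATAAA in 0 of 13, against 12.4%. A motif match here is a description of letters and not of binding. The windows of Ehmt2 and Cbx1 are shown, since these genes had the largest change over the stages and the largest MERVL-KD effect, and capitals mark each CpG. Ehmt2 has 2 start sites, of which the upstream window is shown and the other (chr17:34898720-34898969) holds 36 CpG. Both are read on the plus strand, at chr17:34898224-34898473 with 18 CpG and at chr11:96788885-96789134 with 16 CpG.
Ehmt2: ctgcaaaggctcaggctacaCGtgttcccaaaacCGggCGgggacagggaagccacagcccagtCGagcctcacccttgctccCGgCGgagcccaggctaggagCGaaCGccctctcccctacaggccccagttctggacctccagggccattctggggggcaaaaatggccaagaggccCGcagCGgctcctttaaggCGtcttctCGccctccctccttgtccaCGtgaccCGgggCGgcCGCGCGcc
Cbx1: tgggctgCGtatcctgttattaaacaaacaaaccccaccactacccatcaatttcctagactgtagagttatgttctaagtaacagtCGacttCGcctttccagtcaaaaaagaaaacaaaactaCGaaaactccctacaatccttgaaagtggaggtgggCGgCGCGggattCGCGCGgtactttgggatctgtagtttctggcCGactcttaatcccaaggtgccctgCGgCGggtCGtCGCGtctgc

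The wider pathway was described with 57 further genes in 9 lists, of which 55, 55 and 54 were tested at the 3 stages. The lists were drawn up with earlier results of these data known. MERVL-KD gave 4 higher and 15 lower genes in 2-cell embryos, 2 and 10 in 4-cell embryos, and 1 and 4 in 8-cell embryos, beside the 14.0%, 10.6% and 5.13% of all features that passed. Their median log2 fold change was -0.10, -0.13 and -0.13. The split depended on the scaling. With library size alone the splits became 19 higher and 7 lower, 3 and 7, and 3 and 3, while the median of all features moved to 0.31, 0.08 and 0.14. Relative to that median, 40 of 55, 37 of 55 and 36 of 54 genes lay below it under either scaling. The 8-cell count became 2 higher and 11 lower without MERVL-KD replicate 2, where the share of all features that passed went from 5.13% to 9.16%. By list, the corepressors of retroviral elements held 5 lower of 8 in 2-cell, 2 in 4-cell and 1 in 8-cell embryos. Factors of heterochromatin assembly and DNA methylation maintenance held 2, 3 and 0 lower of 9. The HUSH complex silences retroelements together with MORC2. The list of its genes and of genes associated with it, Morc2a among them, held 2, 1 and 0 lower of 6. The 4-cell call in that list was Tasor2 (-0.49, edgeR, adjusted p = 0.0223). Among the H3K9 demethylases 2 were higher and 3 lower of 10 in 2-cell embryos, and 2 were lower at each later stage. The list of other MORC and SMC hinge ATPases, of which 3 were tested (Morc1, Morc4 and Smchd1), held 2, 1 and 0 higher. The MORC genes outside this list, Morc3 and Morc2a, did not pass at any stage. The KRAB zinc finger and TRIM28 axis held 0 higher and 1 lower of 10 in 2-cell, 1 and 1 in 4-cell, and 1 and 0 in 8-cell embryos, and the G9a/GLP partners 2, 1 and 1 lower of 3. The list of other H3K9 methyltransferases and the SETDB1 partner Atf7ip2 held 0 of 5, and Cbx3, the third HP1 gene, did not pass at any stage.

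**Figure D4:**
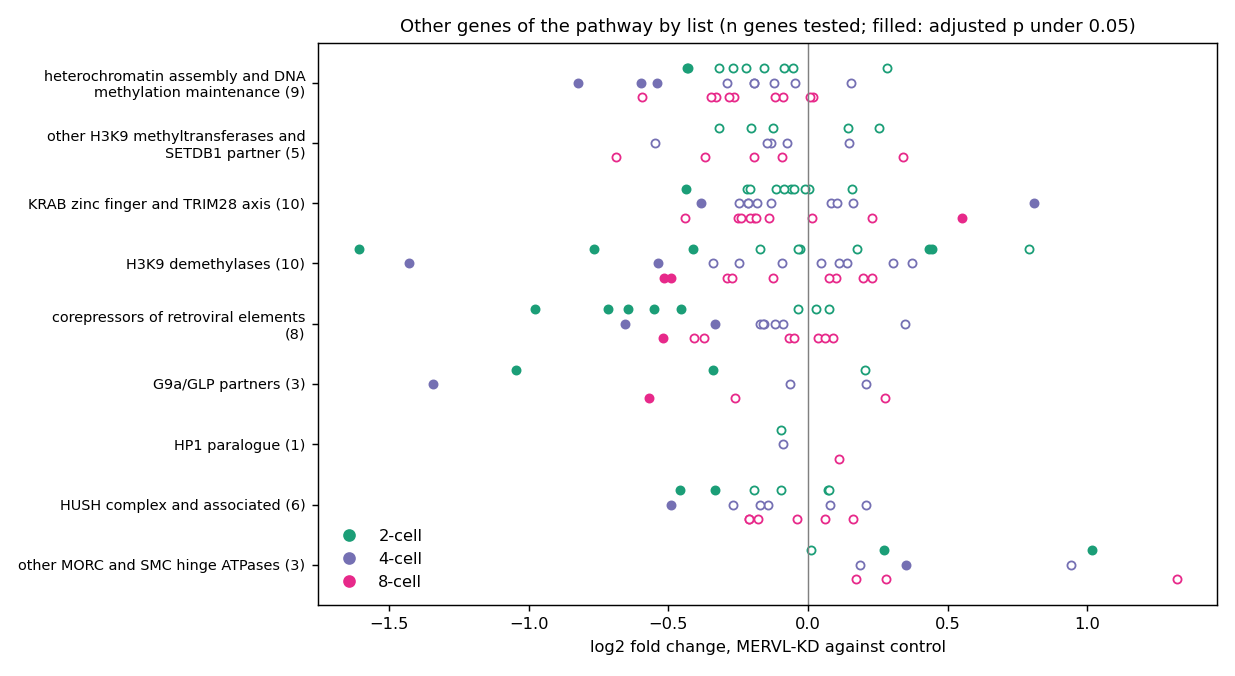
Log2 fold change of MERVL-KD against control embryos for the genes of the 9 pathway lists at the 2-cell, 4-cell and 8-cell stages, with filled points for adjusted p under 0.05 and genes grouped by list. Zfp644 and Kdm4c are at or below -1.046 at the 2-cell and the 4-cell stage, and Zfp809 is at 0.81 and 0.55 at the 4-cell and the 8-cell stage.

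Zfp644, a zinc finger partner of G9a/GLP, was at 155 and 165 CPM in control and at 73.9 and 72.4 CPM in MERVL-KD 2-cell embryos. It was at 601 and 667 against 284 and 214 CPM at the 4-cell and at 504 and 527 against 371 and 319.6 CPM at the 8-cell stage. Its log2 fold changes were -1.046, -1.34 and -0.57 (adjusted p = 1.26e-06, 9.02e-05 and 0.00368), and the groups did not overlap at any stage. Kdm4c, a demethylase that removes H3K9 methylation, was at 59.0 and 61.4 CPM against 21.3 and 15.9 CPM at the 2-cell stage, at 140.0 and 123 against 50.01 and 47.5 CPM at the 4-cell stage and at 109 and 118 against 76.2 and 81.6 CPM at the 8-cell stage. Its log2 fold changes were -1.61, -1.43 and -0.52 (adjusted p = 2.15e-06, 1.10e-05 and 0.0130). The related demethylase Kdm4a and the histone deacetylase Hdac1 also passed at all 3 stages as lower, Kdm4a with log2 fold changes of -0.77, -0.54 and -0.49, and Hdac1 with -0.55, -0.66 and -0.52. The 4-cell call of Kdm4a was near the threshold (edgeR, adjusted p = 0.0427), at 105 and 151 CPM in control against 87.3 and 87.8 CPM. Some of these calls were not checked with a library left out. They were those of Kdm4c at the 8-cell, Kdm4a at the 4-cell, and Hdac1 at the 2-cell and 4-cell stage. With library size as the only scaling Zfp644, Kdm4c, Kdm4a and Hdac1 stayed below 0 at every stage, and Kdm4a no longer passed in 4-cell and 8-cell embryos (adjusted p = 0.0786 and 0.0576). The 8-cell call of Kdm4a was lost without control replicate 1 too (adjusted p = 0.0563). Other named changes were those of Jmjd1c (0.43, adjusted p = 0.0131) and Kdm3b (0.44, adjusted p = 0.0173), both of the demethylase family, and of the ATPase Morc4 (1.02, adjusted p = 0.0287, and 0.0613 by DESeq2), which were higher at the 2-cell stage. Jmjd1c was lost without MERVL-KD replicate 1 (adjusted p = 0.159), Kdm3b without control replicate 1 (0.211), and Morc4 without control replicate 1 or MERVL-KD replicate 2 (0.203 and 0.0826). In the fit of 12 libraries Jmjd1c and Morc4 did not pass (adjusted p = 0.0858 and 0.3501). At the 4-cell stage Zfp809, a KRAB zinc finger protein that recognises retroviral sequence, and Smchd1, an SMC hinge ATPase of silent chromatin, were higher (0.81 and 0.35, adjusted p = 0.000805 and 0.0370). Smchd1 was lost without either control library or MERVL-KD replicate 2 (adjusted p = 0.0752, 0.336 and 0.0839), in the fit of 12 libraries (0.0504) and with the replicate block (0.0610). Hells, a chromatin remodeller needed for DNA methylation of repeats, was lower there (-0.82, adjusted p = 0.000372). Both Hells and Smchd1 passed at the 2-cell stage too, at -0.43 and 0.27 (adjusted p = 0.00621 and 0.0489). That call of Hells was lost with library size alone (0.31), and that of Smchd1 with the size factors of DESeq2 (0.0620). At the 8-cell stage Zfp809 was higher as well (0.55, adjusted p = 0.0200).

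The ERV families that H3K9 methylation is known to silence in mouse cells, 29 of them and MERVL not among them, were read beside the factors. This list too was drawn up with earlier results of these data known. It counts the long terminal repeat and the internal part of an element as separate families, such as RLTR1B with RLTR1B-int and RLTR45 with RLTR45-int. Linked entries can pass together, so the counts are not of independent elements. In MERVL-KD embryos 9, 10 and 5 were higher at the 3 stages and 0 were lower (edgeR), where 7.67%, 2.48% and 4.74% of all repeat families tested were higher and 2.83%, 3.52% and 2.17% lower. At an unadjusted p under 0.05 the lower ones numbered 0, 0 and 2, where 5.25%, 15.6% and 4.06% of all repeat families were. The median log2 fold change was 0.28, 0.25 and 0.19. The count at the 2-cell stage was 5 without MERVL-KD replicate 1, and at the 8-cell stage it was 2 without control replicate 2 and 9 without MERVL-KD replicate 1, with 1 family passing as lower in each of these. With library size as the only scaling it was 18, 10 and 8.

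**Figure D5:**
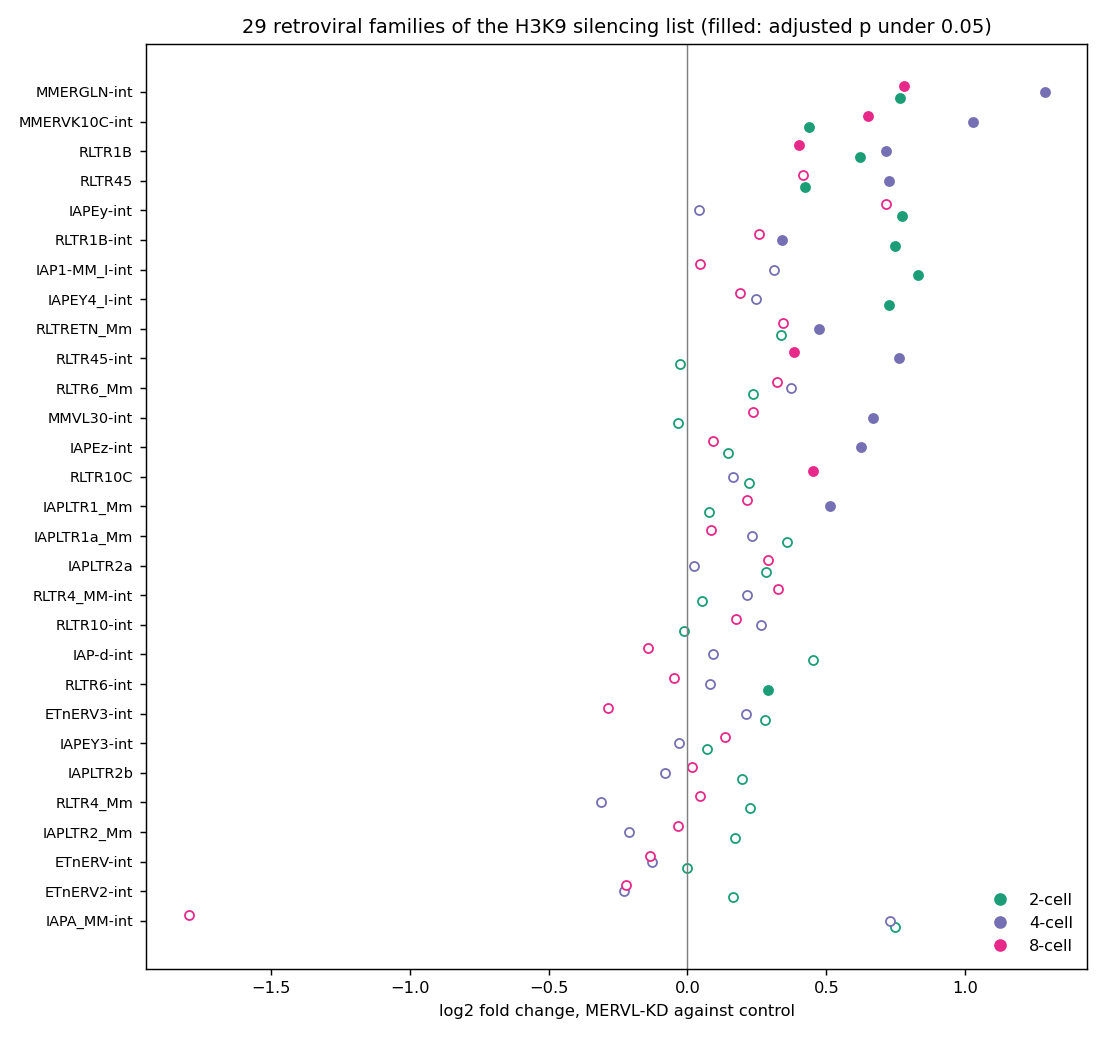
Log2 fold change of MERVL-KD against control embryos for the 29 ERV families at the 3 stages, with filled points for adjusted p under 0.05. Most points lie above 0, with a median of 0.28, 0.25 and 0.19, and MMERGLN-int reaches 1.29 at the 4-cell stage.

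MMERGLN-int, an ERV of class I, was at 131 and 118 CPM in control and 224 and 175 CPM in MERVL-KD 2-cell embryos. It was at 132 and 139 against 327 and 329.6 CPM at the 4-cell stage, and at 141 and 146 against 238 and 251 CPM at the 8-cell stage. The groups did not overlap at any stage, and it rose by a log2 of 0.77, 1.29 and 0.78 (adjusted p = 0.000400, 5.47e-06 and 0.000250). MMERVK10C-int, of the ERVK class, rose by 0.44, 1.03 and 0.65, and RLTR1B, a long terminal repeat, by 0.62, 0.72 and 0.40. RLTR1B-int was higher by 0.75 in 2-cell and by 0.34 in 4-cell embryos (adjusted p = 4.52e-05 and 0.0271). IAPEz-int, an internal part among the listed IAP families, was higher by 0.62 in 4-cell embryos (adjusted p = 0.000856). It did not pass at the 2-cell and the 8-cell stage, at 0.15 and 0.09 (edgeR, adjusted p = 0.648 and 0.794). Of the other IAP families listed, only IAPLTR1_Mm passed at the 4-cell stage (0.51, adjusted p = 0.0159). The rest ran from -0.21 for IAPLTR2_Mm to 0.73 for IAPA_MM-int there. RLTR45-int was higher by 0.76 in 4-cell and by 0.38 in 8-cell embryos (adjusted p = 0.000460 and 0.0201), the last lost without control replicate 2 (0.180). Reads of a family were counted only where they aligned to a single place, so the values follow the copies that can be told apart.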

How the data were processed

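Analysed here were the 12 total RNA libraries, 2 per group of control and MERVL-KD embryos at 3 stages. The ATAC-seq samples were not used here. The authors aligned reads to GRCm38 with STAR 2.5.3a, kept unique alignments and counted them per GENCODE gene and RepeatMasker family with featureCounts. These raw counts were deposited without normalization, beside exon positions and lengths per the file headers. The strand setting is not given in the sources used here. From 71.8% to 74.7% of the counts between 1 and 50 were even, so both mates of a pair were mostly counted and the precision is below that of as many single reads. Totals were 28167085 to 41482526 counts per library, and replicates differed by more than sampling noise (chi-square per degree of freedom 14.7 to 25.8). Intervals of counts would cover counting error only, and p-values measure the spread between pools of embryos.

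The deposited counts were tested with edgeR 4.0.16 (R 4.3.3) by the robust quasi-likelihood test after filterByExpr and TMM scaling. Each MERVL-KD comparison used the 4 libraries of its stage. Stage steps and differences of effects used 1 fit of the 12 libraries, whose scaling the CPM follow, so the sign of a small fold change can differ from that of the CPM. Benjamini-Hochberg adjustment ran over every tested feature, and a feature passed at an adjusted p under 0.05.

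The 10 factors, the lists and the tests were chosen with earlier results of these data known. Named genes are the 10 factors, MERVL-int, up to 3 pathway genes and ERV families per direction and stage with the smallest adjusted p, and for each factor the gene of most similar course. Genes that passed at all 3 stages were added after their values were seen. Alternatives were DESeq2 1.42.0, its size factors, library size alone, other count filters, counts halved, a replicate block, other sets of libraries, a non-robust fit, a 2-fold minimum and each library left out. The methods were tested on simulated counts, where 100 well-counted features were changed by each fold size in each MERVL-KD comparison. Fewer features were changed than passed in the real data, so recovery there can differ. Of 1.5-fold changes, 49%, 34% and 38% were recovered in the 2-cell, 4-cell and 8-cell comparisons, and of 2-fold changes 88%, 81% and 86%. For the difference of the 4-cell and 2-cell effects, 57% of 2-fold changes were recovered. A factor that did not pass is thus not shown to be unchanged. Copies of transcripts elsewhere in GRCm38 were sought with BLAST+ 2.17.0 (at least 200 bases at 95% identity). ASO sequences are those the study designed, and promoters come from RefSeq, where all 10 factors matched by symbol.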

Additional observations from a re-analysis of the deposited data

Results flagged for a closer look

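The MERVL-KD effect on Cbx1 and on Atf7ip differed between the 4-cell and the 2-cell stage by the test of the difference itself. For Cbx1 the difference was 1.64 on the log2 scale, from 26.8 and 32.2 CPM against 54.2 and 50.8 CPM in controls at the 2-cell stage to 33.4 and 26.6 CPM against 17.7 and 16.5 CPM at the 4-cell stage (edgeR, adjusted p = 0.000159). For Atf7ip it was 0.63 (edgeR, adjusted p = 0.0186), a call lost when any of 6 libraries was left out. No cause was tested.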

How the results depend on the processing

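Of the 10 factors, a 2-fold minimum left 0 passing in each MERVL-KD comparison, 0 for control 8-cell against 4-cell embryos and 1 for the difference of the 4-cell and 2-cell effects. A non-robust fit gave 1 in 4-cell embryos. In 8-cell embryos DESeq2, library size alone and the replicate block gave 2 each and a filter on 1 count gave 3. Library size alone gave 1 for the difference of the 4-cell and 2-cell effects. Control 8-cell against 4-cell embryos gave 4 under a filter of 10 counts and 4 with only the 4 control libraries fitted. With 1 library left out, where the lone sample is assumed to vary like the others, the counts ran from 1 to 3, 1 to 2 and 1 to 2 for the 3 stages, 9 to 10 and 0 to 2 for the control steps, and 1 to 2 and 0 to 0 for the differences. The replicate numbers did not pair the samples (correlation -0.0132, -0.000740 and 0.00736 over 24850 features). The block moved the features passing from 2982, 2171 and 983 to 2690, 1858 and 1403, lost Atf7ip in 4-cell embryos (adjusted p = 0.0668) and added Ehmt2 in 8-cell embryos (0.0267). Among all features the calls went from 2982 to 5283 in 2-cell embryos with library size alone (86.7% of them higher, against 48.2%), from 983 to 1685 in 8-cell embryos under the filter of 1 count, from 1527 to 2382 for control 8-cell against 4-cell embryos by DESeq2, and from 1025 to 1629 and 159 to 477 for the differences by DESeq2. A 2-fold minimum left 1382, 914, 325, 384, 564 and 101 in the comparisons named here, in that order of stages, control step and differences.

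Values that changed sign belonged to factors that had not passed. Library size alone turned the 2-cell log2 fold changes of Trim28 to 0.038, Atf7ip to 0.13, Suv39h2 to 0.21, Cbx5 to 0.084 and Morc3 to 0.22, and the 8-cell ones of Suv39h1 to 0.11 and Cbx5 to 0.029. It turned control 8-cell against 4-cell values to -0.12 for Setdb1, -0.18 for Cbx5 and -0.18 for Morc3, and differences of the 4-cell and 2-cell effects to -0.30 for Trim28, -0.20 for Setdb1, -0.084 for Suv39h2, -0.18 for Cbx5 and -0.24 for Morc3. The fit of 12 libraries gave Suv39h1 -0.053 in 2-cell embryos, and the filter of 1 count gave it 0.0050 in 8-cell embryos. The filter of 10 counts gave the difference of the 4-cell and 2-cell effects as -0.084 for Trim28 and -0.025 for Morc3, and halved counts gave -0.0066 for Trim28. With 1 library left out, Suv39h1 ran from -0.0012 to 0.036 in 2-cell and up to 0.069 in 8-cell embryos, Suv39h2 from -0.043 to 0.16 in 4-cell and Atf7ip from -0.021 to 0.20 in 8-cell embryos. Control 8-cell against 4-cell values ran from -0.020 to 0.069 for Cbx5, -0.023 to 0.087 for Morc3 and -0.15 to 0.050 for Suv39h1. The difference of the 4-cell and 2-cell effects ran from -0.085 to 0.087 for Trim28 and -0.072 to 0.12 for Morc3, and that of the 8-cell and 4-cell effects from -0.017 to 0.16 for Setdb1. With library size alone the median of all features in 2-cell embryos was 0.31, against 0.02 with TMM. Relative to that median, Trim28, Cbx5 and Atf7ip were at -0.27, -0.22 and -0.18 in 2-cell embryos under either scaling. Suv39h2 and Morc3 were at -0.10 and -0.09 there. The cause of the changes of sign was not tested. With 2 libraries a group, small differences lie beyond what these data can show.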
